A study of Arabidopsis thaliana with 12 samples.

Results

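The nuclear genes for the light-harvesting antenna and the photosystem subunits were followed in the hypocotyl and upper root of Arabidopsis thaliana. The set was defined by gene family, as nuclear loci named LHCA, LHCB, PSA or PSB in a list of 43 locus codes, out of 32833 loci counted. The list was chosen with earlier results of these data known. It holds 21 antenna genes (9 LHCB1 to LHCB3 genes, 6 LHCB4 to LHCB7 genes and 6 LHCA genes) and 22 photosystem subunit genes (12 PSA and 10 PSB), the second group being called core subunits here. After loci with few counts were removed, 42 of the 43 could be tested, and LHCB1.5 could not.

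Plants were 3 weeks old, grown in long days, and each sample was the hypocotyl with the uppermost 5 mm of root. The wild type was Columbia-0. The er erl2 line carries er-105 and erl2-1, which affect the receptor kinase ERECTA and its relative ERL2. The pxf line carries pxy-3, pxl1-1 and pxl2-1, which affect PXY, the receptor kinase that maintains the vascular cambium, and its relatives PXL1 and PXL2. The pxf er erl2 line carries all 5 alleles. Each of the 4 genotypes has 3 samples described as biological replicates, with no statement on how many plants went into each. The alleles act in the whole plant, and no sample separates hypocotyl from root or cambium from other tissues. Messenger RNA was selected by its poly-A tail, and reads were counted per locus.

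In the thylakoid membrane, LHCB proteins bind chlorophyll and carry excitation energy to photosystem II, and LHCA proteins do so for photosystem I. The reaction centre proteins themselves are made in the chloroplast, whereas all genes described here lie in the nucleus and their proteins are imported. Nuclear photosynthesis genes are known to be switched on by light and by transcription factors such as GLK1 and GLK2, in step with chlorophyll synthesis.

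Near-identical copies limit what counts can tell within the LHCB1 family. Reads from the 3 neighbouring LHCB1 genes on chromosome 1 can be assigned only through the bases that differ. Their first 90 coding bases are shown because no stretch of this length, compared in steps of 3 bases, held more differing positions. Sequences are from RefSeq, assembly TAIR10.1, read 5′ to 3′ on the coding strand, and capitals mark the 9 positions at which the genes differ.
LHCB1.1: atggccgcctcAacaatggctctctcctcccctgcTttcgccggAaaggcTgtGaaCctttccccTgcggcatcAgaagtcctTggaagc
LHCB1.2: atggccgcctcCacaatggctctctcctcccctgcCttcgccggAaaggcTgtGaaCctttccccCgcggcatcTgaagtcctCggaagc
LHCB1.3: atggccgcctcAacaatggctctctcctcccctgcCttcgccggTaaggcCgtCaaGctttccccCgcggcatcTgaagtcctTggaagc
Over all 804 aligned coding bases, 47 positions differed among the 3 genes, and pairs were identical at 95.6% to 96.4% of bases. Windows of 100 bases shared exactly with another transcript made up 4.4% of LHCB1.1, 1.5% of LHCB1.2 and 4.1% of LHCB1.3. Of all 43 genes, 28 had no shared window and 5 had more than 20%. Windows were matched on both strands, and these 5 shared them mainly with an overlapping locus on the opposite strand, not with a gene copy. They were LHCB1.5, LHCB2.3, PSAE1, PSAG and PSAH1.

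LHCB1.5 (AT2G34420, chr2:14522524-14523568, minus strand, TAIR10.1) had 0 counts in all 12 libraries, which allows at most 3 counts, or 0.207 to 0.284 CPM per library. CPM is the count of a locus scaled to the library's total, with TMM factors for composition. Its exons are covered completely by an annotated non-coding RNA on the opposite strand, AT2G08665, which also had 0 counts in all libraries. Whether reads of these loci were discarded as ambiguous at counting was not tested, so no level of LHCB1.5 is given. PSAG (61.4% of exon bases), PSAH1 (53.3%), LHCB2.3 (40.6%) and PSAE1 (34.1%) are partly covered by loci on the opposite strand, and their levels carry the same uncertainty.

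The promoters of antenna genes shared a short sequence more often than those of core subunits. The letters CCAATC, read on either strand in the 250 bases before the annotated start, occurred in 10 of 21 antenna genes (47.6%), in 1 of 22 core genes (4.5%) and in 10.2% of 27443 protein-coding nuclear loci. CCAATC contains CCAAT, the core recognised by NF-Y factors, and was searched because CCAAT boxes are long known in plant antenna promoters. Stretches of 60 bases around the match are shown for 6 of the 10 genes, 2 of them LHCB2 copies with similar promoters, with the match in capitals. They are RefSeq sequences of assembly TAIR10.1, written on the strand of the gene, and LHCA3 carries the match as its reverse complement GATTGG.
LHCB1.3, chr1:10477767-10477826, plus strand: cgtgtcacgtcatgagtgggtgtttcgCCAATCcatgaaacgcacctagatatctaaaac
LHCB2.1, chr2:1824507-1824566, minus strand: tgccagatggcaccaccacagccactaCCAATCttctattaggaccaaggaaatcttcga
LHCB2.2, chr2:1800493-1800552, minus strand: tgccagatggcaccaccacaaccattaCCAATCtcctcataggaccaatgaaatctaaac
LHCB4.1, chr5:208804-208863, plus strand: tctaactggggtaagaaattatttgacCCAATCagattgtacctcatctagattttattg
LHCA1, chr3:20341265-20341324, minus strand: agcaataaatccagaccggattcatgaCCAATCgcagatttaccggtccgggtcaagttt
LHCA3, chr1:22699653-22699712, plus strand: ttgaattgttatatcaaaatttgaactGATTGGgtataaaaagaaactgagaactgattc
The G-box CACGTG occurred in 20.9% of the 43 promoters and in 6.5% of all, the I-box GATAAG in 20.9% and 12.3%, and GGTTAA in 14.0% and 14.6%, each counted on both strands. These 4 motifs have the same length and none is the reverse complement of another. Among tested antenna genes, the median log2 difference between pxf er erl2 and wild type was 1.58 for the 9 with CCAATC and 1.61 for the 11 without. It was 0.79 and 0.86 in er erl2, and 1.38 and 1.81 in pxf, in the same order. The sets were divided by the full CCAATC, and promoters without it can still hold CCAAT, as those of LHCB1.1 and LHCB1.4 do. They therefore do not contrast promoters with and without a CCAAT box. The genes with CCAATC had the higher levels, with a median of 329.8 CPM over all libraries against 36.4 CPM, and these differences between the sets were not tested. A match describes letters, and binding was not measured.

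Libraries held 10507590 to 14716123 counts, and 19236 loci with 99.9% of the counts were tested. The mutated genes were examined for the labels: PXY averaged 22.9 and 77.4 CPM in the lines with pxy-3 (pxf, then pxf er erl2), where the other lines had 249 (wild type) and 349 CPM (er erl2). ER averaged 9.57 and 9.33 CPM in the lines with er-105 (er erl2, then pxf er erl2), where the others had 38.3 (wild type) and 62.5 CPM (pxf). PXL1, PXL2 and ERL2 were below 1 CPM on average in every genotype and check nothing. The 43 genes together took between 0.354% and 0.483% of counts in wild type. Their share was between 0.715% and 0.794% in er erl2, between 0.997% and 1.33% in pxf, and between 1.01% and 1.57% in pxf er erl2. Within genotypes, 2 libraries stood apart in these genes: pxf replicate 3 was the highest of its genotype for 41 of 42 tested genes (35.4% of all loci), and pxf er erl2 replicate 3 was the lowest for 41 of 42 (38.6% of all loci). PSAO lies 22 loci from PXL1, and PSAE1 lies 13 loci from PXL2.

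Transcripts of the antenna and the photosystems were higher in all mutant lines than in wild type, and antenna and core genes had close median differences. In er erl2, 33 of 42 genes rose and 0 fell, with 18.8% of all tested loci called and 10.3% called higher (edgeR quasi-likelihood test, Benjamini-Hochberg adjusted p under 0.05 over 19236 loci). In pxf, 40 rose and 0 fell, beside 21.0% called and 13.0% called higher. In pxf er erl2, 41 rose and 0 fell, beside 36.3% called and 19.9% called higher. LHCA5 and LHCA6, both among the 41, passed the filter on low counts only through mutant libraries. The 3 contrasts share the wild-type libraries. In er erl2, the calls of LHCA1, LHCA2, LHCA3, LHCB1.3, LHCB1.4, LHCB4.3, PSAG and PSBQ2 were each lost under at least 1 alternative, such as leaving out a library. In these bulk samples, more cells that make a transcript cannot be told apart from more transcript per cell.

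The median log2 difference from wild type was 0.86 in er erl2, 1.39 in pxf and then 1.59 in pxf er erl2 over the 42 genes, and 0.02, 0.01 and 0.00 over all loci tested. Antenna genes had medians of 0.80, 1.4 and 1.61 in the same order, and core genes 0.88, 1.39 and 1.58. The median of the antenna thus differed from that of the core by -0.08, 0.01 and 0.03 on the log2 scale, and no library left out in turn moved these differences by more than the spread between replicates. Per kilobase of coding length, the median level in wild type was 117 CPM for antenna and 85.6 CPM for core genes, and the median difference between pxf er erl2 and wild type was 297 and 193 CPM per kilobase. All er erl2 libraries lay above all wild-type libraries for 40 of 42 genes (20% of all loci). The same held for pxf with 41 genes (21.9%) and for pxf er erl2 with 41 (24.5%). Means rose in the order wild type, er erl2, pxf, pxf er erl2 for 38 of 42 genes, the others being LHCB1.2, LHCB1.4, LHCB4.3 and LHCA6.

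**Figure D1:**
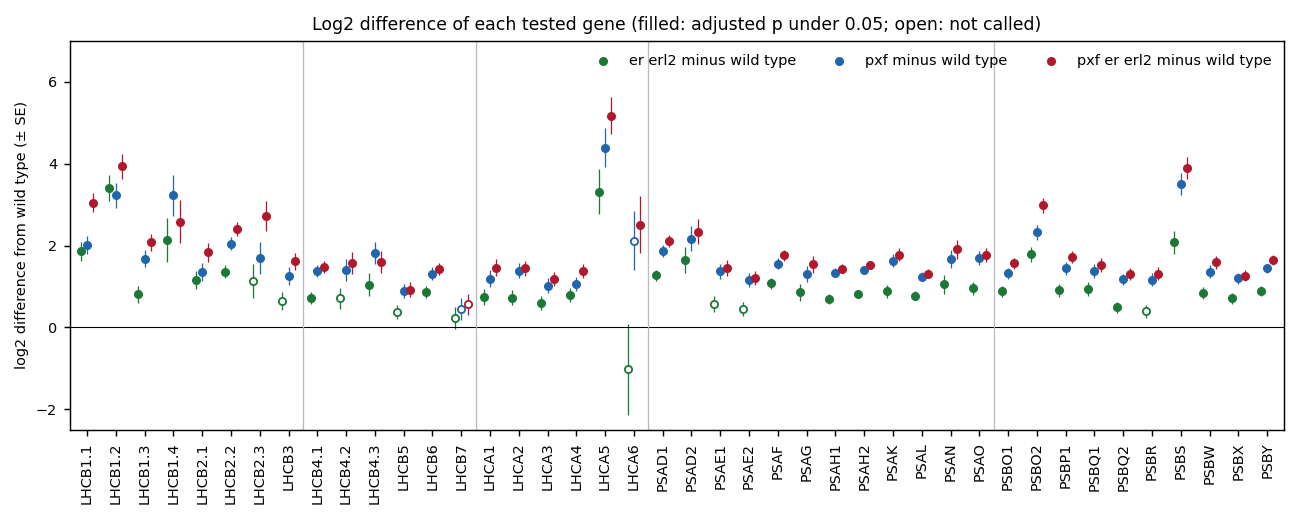
Fitted log2 difference from wild type (y axis, ± SE) of each of the 42 tested genes (x axis, by class) in er erl2, pxf and pxf er erl2, from 3 libraries per genotype. Filled points passed the adjusted p of 0.05 and open points did not. The lowest filled points are above 0, and LHCA5, LHCB1.2 and PSBS stand highest in pxf er erl2.

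The major antenna of photosystem II is a trimer of LHCB1, LHCB2 and LHCB3 proteins, and its genes had the largest median change. Of 8 tested genes, 6 rose in er erl2, 8 in pxf and then 8 in pxf er erl2, with median log2 differences of 1.26, 1.85 and 2.49. LHCB1.3 (AT1G29930), the LHCB1 gene with the highest level per kilobase of coding length (2251 CPM per kilobase over all libraries), stood at 815, 794 and 525 CPM in wild type, 1234, 1341 and 1166 CPM in er erl2, 2133, 2003 and 2685 CPM in pxf and 3166, 3620.0 and 2235 CPM in pxf er erl2. All mutant libraries lay above all wild-type libraries, er erl2 lay below pxf, and pxf overlapped pxf er erl2. Its log2 difference was 0.81 (SE 0.20, adjusted p = 0.0184) in er erl2, 1.68 (SE 0.21, adjusted p = 0.000372) in pxf and 2.08 (SE 0.21, adjusted p = 3.2e-05) in pxf er erl2. In er erl2 it no longer passed when wild-type replicate 3 was left out (adjusted p = 0.0503), nor without er erl2 replicate 2 (adjusted p = 0.0596).

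LHCB1.2 (AT1G29910), a neighbour of LHCB1.3 with nearly the same coding sequence as printed above, changed most of the trimer genes in pxf er erl2. It was at 4.93, 4.93 and 2.29 CPM in wild type, 36.9, 39.6 and 51.4 CPM in er erl2, 34.3, 28.0 and 50.4 CPM in pxf and 58.9, 72.2 and 52.6 CPM in pxf er erl2. Wild type was far below the mutants, er erl2 and pxf overlapped, and pxf er erl2 lay above the other lines in every library. The log2 difference was 3.41 (SE 0.31, adjusted p = 3.84e-05), 3.22 (SE 0.31, adjusted p = 0.000111) and 3.93 (SE 0.31, adjusted p = 7.98e-06) in er erl2, pxf and pxf er erl2. LHCB3 (AT5G54270), whose protein occurs in only some of the trimers, changed least in pxf er erl2, at 264, 212 and 169 CPM in wild type, 328, 357 and 323 CPM in er erl2, 473, 459 and 611 CPM in pxf and 718, 798 and 458 CPM in pxf er erl2. Wild type did not overlap any mutant line, but the difference of er erl2 did not pass the test (0.64 (SE 0.21, adjusted p = 0.0602)). The log2 difference was 1.26 (SE 0.21, adjusted p = 0.0027) in pxf and 1.61 (SE 0.22, adjusted p = 0.000269) in pxf er erl2. LHCB2.3 averaged 1.19 CPM in wild type against 7.81 CPM in pxf er erl2, and lay below LHCB2.1 and LHCB2.2 per kilobase in every genotype.

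The monomeric LHCB proteins link the trimers to the photosystem II core. Of their 6 genes, with LHCB7 counted here, 3 rose in er erl2, 5 in pxf and then 5 in pxf er erl2, with medians of 0.71, 1.35 and 1.46 (log2). LHCB5 (AT4G10340), the CP26 protein and the gene of this class with the highest level per kilobase (760.0 CPM per kilobase), stood at 498, 434 and 336 CPM in wild type, 530.5, 602 and 519.5 CPM in er erl2, 752, 681 and 926 CPM in pxf and 868, 921 and 620.4 CPM in pxf er erl2. No mutant library overlapped the wild type, yet the er erl2 difference of 0.38 (SE 0.18, adjusted p = 0.161) did not pass. It was 0.90 (SE 0.18, adjusted p = 0.00547) in pxf and 0.93 (SE 0.18, adjusted p = 0.00218) in pxf er erl2. LHCB4.3 (AT2G40100), a CP29 isoform that is far less abundant than its relatives, had 1.80, 2.92 and 1.53 CPM in wild type, 5.69, 3.99 and 3.16 CPM in er erl2, 6.98, 6.82 and 8.14 CPM in pxf and 4.91, 7.31 and 6.68 CPM in pxf er erl2. It rose in all 3 lines, and pxf overlapped pxf er erl2. In er erl2 it no longer passed when wild-type replicate 1 was left out (adjusted p = 0.0768), nor without wild-type replicate 3 (adjusted p = 0.0862) or er erl2 replicate 1 (adjusted p = 0.0965). Its log2 difference was 1.60 (SE 0.28, adjusted p = 0.000696) in pxf er erl2.

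LHCB7 (AT1G76570), a rarely expressed member of the family, was the one tested gene called in none of the contrasts with wild type. It had 1.80, 2.74 and 1.61 CPM in wild type, 2.23, 2.11 and 2.90 CPM in er erl2, 2.64, 2.41 and 3.38 CPM in pxf and 3.51, 3.02 and 2.54 CPM in pxf er erl2. Wild type overlapped every mutant line. The log2 difference in pxf er erl2 was 0.56 (SE 0.26, adjusted p = 0.109).

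LHCA1 to LHCA4 form the antenna belt of photosystem I, and LHCA5 and LHCA6 help to join photosystem I to the chloroplast NDH complex. Of the 6 genes, 5 rose in er erl2, 5 in pxf and then 6 in pxf er erl2, with medians of 0.74, 1.29 and 1.45 (log2). LHCA1 (AT3G54890), highest of the class per kilobase (642 CPM per kilobase), was at 279, 255 and 192 CPM in wild type, 404, 425 and 386 CPM in er erl2, 532, 475 and 654 CPM in pxf and 728, 798 and 473 CPM in pxf er erl2. The genotypes were ordered without overlap except between pxf and pxf er erl2. The log2 difference was 0.74 (SE 0.20, adjusted p = 0.0257), 1.2 (SE 0.20, adjusted p = 0.00237) and 1.46 (SE 0.20, adjusted p = 0.000302) in er erl2, pxf and pxf er erl2. The call in er erl2 was lost when any er erl2 library, wild-type replicate 2 or wild-type replicate 3 was left out, and without the filter on low counts, with adjusted p up to 0.0862. LHCA3 (AT1G61520), which pairs with LHCA2, changed least in pxf er erl2, at 223, 208 and 150.5 CPM in wild type, 298, 304 and 275 CPM in er erl2, 363, 353 and 464 CPM in pxf and 471, 509 and 339.7 CPM in pxf er erl2. Its groups were ordered in the same way, with a log2 difference of 1.18 (SE 0.18, adjusted p = 0.000482) in pxf er erl2.

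LHCA5 (AT1G45474) had the largest log2 difference of all 42 genes, from a wild-type level near 0. It passed the filter on low counts only through mutant libraries, so it was tested and ranked because of the lines in which it was high. It was at 0.190, 0.274 and 0 CPM in wild type, 1.73, 1.55 and 1.49 CPM in er erl2, 3.71, 2.69 and 3.69 CPM in pxf and 5.69, 7.39 and 4.23 CPM in pxf er erl2. These values come from 5 counts in all for the wild type, 57 for er erl2, 139 for pxf and 221 for pxf er erl2. Wild type overlapped no mutant line, and pxf er erl2 lay above pxf in every library. The ratio of pooled counts per total count between pxf er erl2 and wild type was 38.4 (95% interval 16.2 to 120, counting error only), and the fitted log2 difference was 5.17 (SE 0.46, adjusted p = 4.07e-06). LHCA6 (AT1G19150) had 6 counts for wild type, 3 for er erl2, 34 for pxf and 41 for pxf er erl2, each over 3 libraries. LHCA6 passed the filter only through libraries of pxf and pxf er erl2. Its pooled ratio to wild type was 0.465 in er erl2, with a 95% counting interval from 0.0753 to 2.18. The same ratio was 5.94 in pxf er erl2, with an interval from 2.51 to 17.1. Library by library, LHCA6 had 2, 4 and 0 counts in wild type, 1, 0 and 2 in er erl2, 8, 13 and 13 in pxf, and 15, 19 and 7 in pxf er erl2. LHCA6 rose in pxf er erl2 (adjusted p = 0.0137, edgeR), but this call was lost without pxf er erl2 replicate 2 (adjusted p = 0.0561). There was no call in er erl2 (adjusted p = 0.566) or pxf (adjusted p = 0.0536).

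The nuclear PSA genes encode peripheral subunits of photosystem I, which dock the electron carriers and the antenna. Of 12 genes, 10 rose in er erl2, 12 in pxf and then 12 in pxf er erl2, with medians of 0.87, 1.47 and 1.65 (log2). PSAO (AT1G08380), highest per kilobase in the class (356 CPM per kilobase), is a subunit near the docking site for LHCB trimers, and was at 66.8, 66.4 and 54.9 CPM in wild type, 123, 126 and 115 CPM in er erl2, 183, 186 and 241 CPM in pxf and 234, 250.1 and 159 CPM in pxf er erl2. The genotypes were ordered without overlap except pxf and pxf er erl2, and the log2 difference was 0.96 (SE 0.17, adjusted p = 0.00257), 1.70 (SE 0.17, adjusted p = 9.9e-05) and 1.77 (SE 0.17, adjusted p = 1.93e-05) in the 3 lines.

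PSAD1 (AT4G02770) and PSAD2 (AT1G03130) encode the ferredoxin-docking subunit on the stromal side. PSAD2 changed most among PSA genes, at 7.96, 6.84 and 17.8 CPM in wild type, 36.2, 36.0 and 30.8 CPM in er erl2, 45.9, 44.4 and 57.2 CPM in pxf and 56.8, 66.0 and 43 CPM in pxf er erl2. Wild-type replicate 3 was more than the other wild-type replicates together, unlike most of the genes, and every mutant library was still higher. The log2 difference of PSAD2 was 1.65 (SE 0.31, adjusted p = 0.00487), 2.16 (SE 0.30, adjusted p = 0.001) and 2.33 (SE 0.30, adjusted p = 0.00026) in er erl2, pxf and pxf er erl2. PSAD1 was at 35.7, 38.0 and 48.4 CPM in wild type, 101, 101 and 94.4 CPM in er erl2, 138, 140.4 and 167 CPM in pxf and 176, 205 and 148 CPM in pxf er erl2, with wild type, er erl2 and pxf apart from one another and pxf er erl2 overlapping pxf. Its log2 difference in pxf er erl2 was 2.11 (SE 0.14, adjusted p = 9.12e-07). PSAE2 (AT2G20260), a stromal subunit beside PSAD, changed least of the PSA genes in pxf er erl2, at 42.8, 34.6 and 29.0 CPM in wild type, 45.4, 50.3 and 49.4 CPM in er erl2, 78.4, 68.6 and 90.1 CPM in pxf and 88.2, 94.7 and 63.5 CPM in pxf er erl2. Wild type and er erl2 did not overlap but their difference did not pass (0.45 (SE 0.17, adjusted p = 0.0938)), while pxf er erl2 differed from wild type by 1.21 (SE 0.17, adjusted p = 0.000278).

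PSAF (AT1G31330) docks plastocyanin on the lumen side, and PSAH2 (AT1G52230) and PSAL (AT4G12800) form part of the docking site for LHCB trimers. PSAF was at 72.8, 80.9 and 69.6 CPM in wild type, 159.6, 160.1 and 153 CPM in er erl2, 214, 195 and 248 CPM in pxf and 266, 293 and 196 CPM in pxf er erl2. PSAH2 was at 31.0, 30.0 and 27.3 CPM in wild type, 49.9, 53.7 and 52.8 CPM in er erl2, 74.6, 75.5 and 81.6 CPM in pxf and 82.9, 98.3 and 73.8 CPM in pxf er erl2. PSAL was at 127, 144 and 121 CPM in wild type, 217, 241 and 211 CPM in er erl2, 294, 298 and 335 CPM in pxf and 345, 362 and 269 CPM in pxf er erl2. In all 3 genes the wild type, er erl2 and pxf were separate and in that order, and pxf er erl2 overlapped pxf through its replicate 3. The log2 difference in pxf er erl2 was 1.76 (SE 0.13, adjusted p = 2.73e-06) for PSAF, 1.53 (SE 0.10, adjusted p = 3.26e-07) for PSAH2 and 1.32 (SE 0.11, adjusted p = 2.64e-06) for PSAL.

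The nuclear PSB genes encode the oxygen-evolving proteins and small subunits of photosystem II, with PSBS as a photoprotective protein. Of 10 genes, 9 rose in er erl2, 10 in pxf and then 10 in pxf er erl2, with medians of 0.89, 1.37 and 1.58 (log2). PSBS (AT1G44575), which senses lumen pH and switches on the dissipation of excess light as heat, changed most, at 6.64, 7.75 and 2.97 CPM in wild type, 23.8, 20.2 and 28.9 CPM in er erl2, 59.2, 59.5 and 76.8 CPM in pxf and 83.0, 98.2 and 74.9 CPM in pxf er erl2. The 4 genotypes overlapped nowhere except pxf and pxf er erl2. The log2 difference was 2.08 (SE 0.28, adjusted p = 0.000525), 3.50 (SE 0.27, adjusted p = 2.82e-05) and 3.89 (SE 0.27, adjusted p = 2.87e-06) in er erl2, pxf and pxf er erl2. PSBS belongs to the antenna superfamily by sequence, and counting it with the antenna moved the antenna-core difference by less than the replicate spread.

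PSBR (AT1G79040), a small subunit that helps hold the oxygen-evolving proteins, was highest per kilobase in the class (922 CPM per kilobase), at 254, 231 and 180.2 CPM in wild type, 298, 304 and 270.3 CPM in er erl2, 477, 443 and 575 CPM in pxf and 567, 639.9 and 440.1 CPM in pxf er erl2. The er erl2 libraries lay above the wild type, without a call (0.39 (SE 0.16, adjusted p = 0.106)), and the log2 difference in pxf er erl2 was 1.31 (SE 0.16, adjusted p = 9.57e-05). PSBX (AT2G06520), a small membrane subunit, changed least in pxf er erl2, at 121, 119 and 95.7 CPM in wild type, 184, 188 and 176 CPM in er erl2, 241, 230.3 and 299 CPM in pxf and 289, 296 and 219 CPM in pxf er erl2. Its groups were apart except pxf and pxf er erl2, with a log2 difference of 1.26 (SE 0.13, adjusted p = 2.93e-05) in pxf er erl2.

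**Figure D2:**
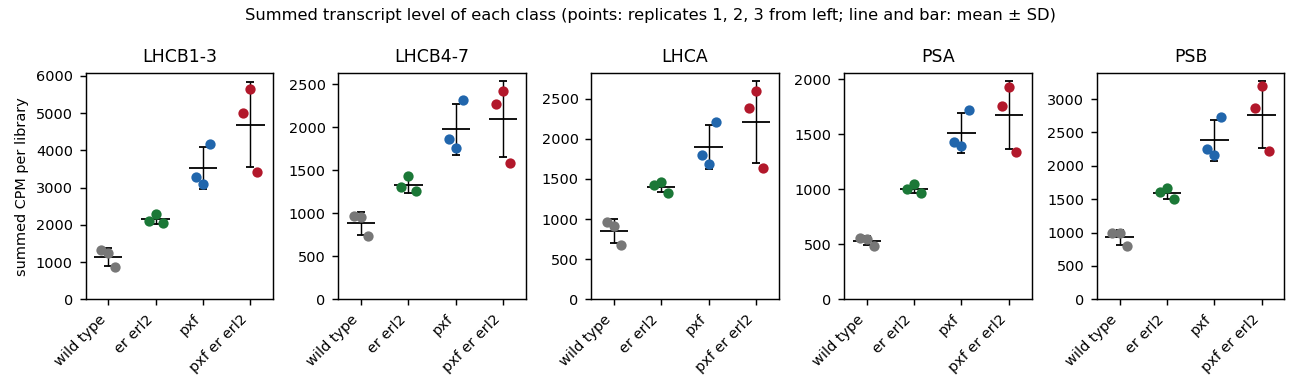
Summed CPM (y axis, from 0) of the genes of each class in each library, with points for replicates 1 to 3 and line and bar for mean ± SD (n = 3 per genotype). In every class wild type lies lowest and er erl2 second, and pxf overlaps pxf er erl2, whose replicate 3 is its lowest library.

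Summed over the 43 genes, the level was 4343 ± 684 CPM in wild type, 7490.3 ± 412 CPM in er erl2, 11289 ± 1620.0 CPM in pxf and then 13427 ± 2885 CPM in pxf er erl2 (SD, n = 3). Relative to wild type, the antenna sum was 1.70, 2.57 and 3.12 times as high in er erl2, pxf and pxf er erl2, and the core sum 1.78, 2.67 and 3.04 times. The ratio of antenna to core sums was 1.96 ± 0.161 in wild type, 1.88 ± 0.0261 in er erl2, 1.90 ± 0.0546 in pxf and then 2.01 ± 0.121 in pxf er erl2, and the genotype means lay within the SD of wild type from one another. The LHCB1 to LHCB3 sum was 4.09 times as high in pxf er erl2 as in wild type, the LHCB4 to LHCB7 sum 2.37 times, the LHCA sum 2.60 times, the PSA sum 3.15 times and the PSB sum 2.97 times. These sums have no test of their own.

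The loss of both receptor families can be compared with the single-family lines on 2 scales. If CPM differences added, the summed level in pxf er erl2 would be 14436 CPM, and the observed mean was 93.0% of that. If fold changes multiplied, it would be 19470 CPM, and the observed mean was 69.0% of that. Leaving out each library in turn, an alternative chosen after seeing the data, gave 84.8% to 104.1% of the additive and 62.9% to 77.2% of the multiplied value, the highest of each without pxf er erl2 replicate 3. The antenna sum was 95.6% of the additive and 71.6% of the multiplied value, and the core sum 88.2% and 64.0%. The LHCB1 to LHCB3 sum was the one class above the additive value, at 103.5% (4687.9 against 4528.7 CPM), and the PSA sum was lowest, at 84.2%. LHCB1.3 alone lay 197.6 CPM above its own additive value, more than the whole class did, and it is also part of the antenna sum. Over the 8 tested genes of the class, the median departure from additivity was -4.65 CPM, and 4 genes lay above it.

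Gene by gene, 34 of 42 genes were below the additive value and 41 below the multiplied value. The median gene was at 88.9% of the additive and 63.4% of the multiplied value, beside 98.5% and 97.8% over all loci tested. The median locus hardly differed from wild type in any line, so the values over all loci give no yardstick for raised genes. For a gene raised in both single-family lines, the multiplied value is always above the additive one. Above the additive value were LHCB1.1, LHCB1.3, LHCB2.3, LHCB3, LHCA5, LHCA6, PSBO2 and PSBS. On the CPM scale, 0 of 42 genes departed from additivity at an adjusted p of 0.05 (limma on CPM with precision weights), beside 7.89% of all loci, and 4 had an unadjusted p under 0.05. The 95% interval of the CPM interaction spanned 0 for 38 of 42 genes, and the other 4, LHCB1.4, LHCB4.3, PSAH2 and PSAL, were below additivity. For LHCB1.3 the interval ran from -607 to 1002 CPM around an expectation of 2809.6 CPM, so the data allow departures on either side of additivity for this gene.

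On the log2 scale, 14 of 42 genes departed from multiplied fold changes, all of them below, beside 9.45% of all loci called and 4.80% called below (edgeR). The core had 9 of 22 such genes and the antenna 5 of 20. With DESeq2 21 genes were called, and 9 were called when wild-type replicate 1, wild-type replicate 3 or pxf replicate 3 was left out. The 5 with the smallest p were LHCB1.2, PSAD1, PSAH2, PSAF and PSAL. LHCB1.2 averaged 61.2 ± 10.03 CPM in pxf er erl2 (SD, n = 3), against 76.2 CPM if differences added and 396 CPM if folds multiplied, with a log2 interaction of -2.70 (SE 0.40, adjusted p = 0.00237). PSAD1 averaged 176 ± 28.7 CPM, against 207 and 360.2 CPM, with an interaction of -1.03 (SE 0.19, adjusted p = 0.00599). The interaction was -0.69 (SE 0.13, adjusted p = 0.00663) for PSAH2, -0.88 (SE 0.18, adjusted p = 0.0129) for PSAF and -0.70 (SE 0.15, adjusted p = 0.0127) for PSAL.

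**Figure D3:**
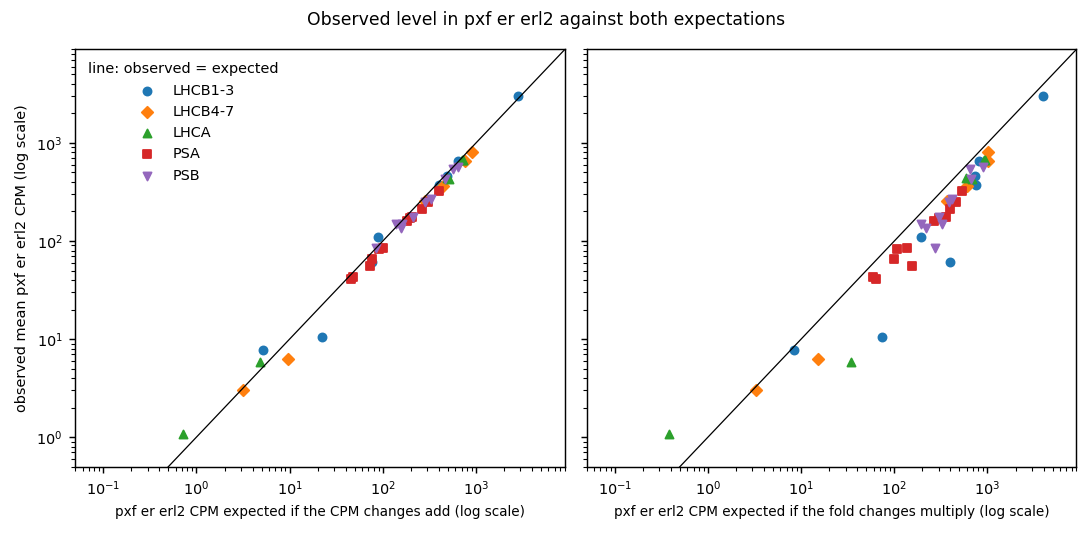
Observed mean CPM in pxf er erl2 (y axis, log scale) of each tested gene against the CPM expected if differences added (left x axis) or if fold changes multiplied (right x axis, both log scales), with symbols by class and a line where both are equal. On the left 34 of 42 genes lie below the line, from 46.6% (LHCB1.4) to 96.8% (PSBR) of the expected value, and on the right 41 of 42 lie below.

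What the er erl2 alleles add to pxf was read from pxf er erl2 against pxf, where 2 of 42 genes differed, both higher, beside 10.5% of all loci called and 5.07% called higher. The share of these genes called was thus no larger than that of all loci. LHCB1.1 (AT1G29920) was at 15.1, 15.4 and 9.43 CPM in wild type, 47.6, 49.5 and 47.6 CPM in er erl2, 50.3, 41.0 and 69.2 CPM in pxf and 117, 124 and 88.3 CPM in pxf er erl2, and every pxf er erl2 library lay above every pxf library. Its log2 difference between the lines was 1.04 (SE 0.20, adjusted p = 0.00951). PSBO2 (AT3G50820) differed by 0.66 (SE 0.17, adjusted p = 0.0307), with 1 pxf er erl2 library below the highest pxf library, and this call was lost under 7 of 18 alternatives (adjusted p up to 0.115). The median over the 42 genes was 0.19, the lowest value -0.65 (LHCB1.4, not called) and the highest 1.04. For 4 of 42 genes, LHCB1.1, LHCB1.2, LHCB2.3 and LHCA5, all pxf er erl2 libraries lay above all pxf libraries. This was a smaller share than over all loci (13.6%). The count of 2 rested on single libraries: leaving out pxf er erl2 replicate 3 gave 9, leaving out replicate 3 of pxf or of wild type gave 4, and leaving out replicate 1 or 2 of either compared line gave 1.

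What the pxf alleles add to er erl2 was read from pxf er erl2 against er erl2, which shares its first group with the previous contrast. Of 42 genes, 37 were higher in pxf er erl2 and 0 lower, beside 34.3% of all loci called and 18.0% called higher, with a median log2 difference of 0.75. Antenna genes had a median of 0.72 and core genes 0.76. LHCB1.2, LHCB1.4, LHCB4.3, LHCB7 and PSAD2 were not called. All pxf er erl2 libraries lay above all er erl2 libraries for 38 genes (23.6% of all loci), and all pxf libraries did so for 36 (22.5%).

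Replicate libraries differed in these genes as a block. Among the 36 genes averaging at least 10 CPM, the median gene in pxf er erl2 was at 105.8%, 116.3% and 78.0% of its genotype mean in replicates 1, 2 and 3. It was at 93.9%, 90.5% and 116.2% in pxf, 99.6%, 104.5% and 94.6% in er erl2, and 111.7%, 107.2% and 81.6% in wild type. Besides the libraries named above, pxf er erl2 replicate 2 was highest for 40 of 42 genes (29.8% of all loci) and wild-type replicate 3 lowest for 36 (38.7%). The genes are therefore not independent measurements of a genotype.

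**Figure D4:**
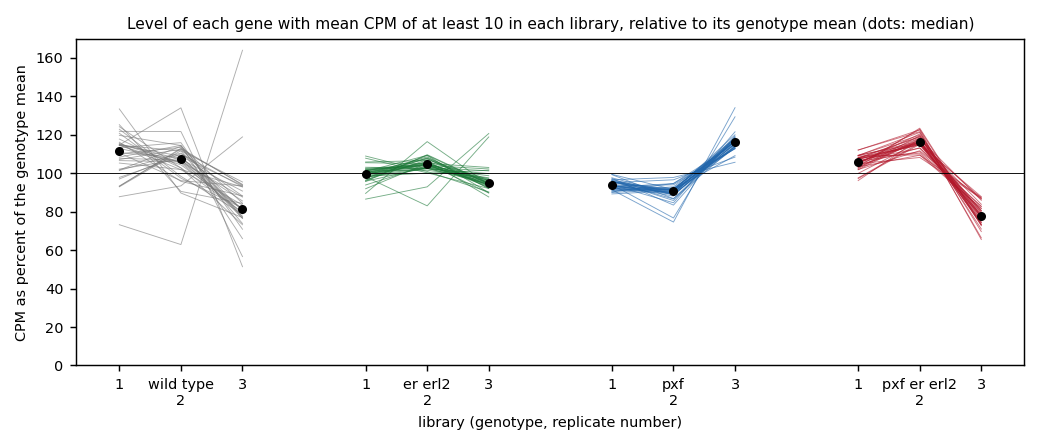
CPM of each of 36 genes as a percent of its genotype mean (y axis, from 0) in every library (x axis, replicates 1 to 3 of each genotype), with a line per gene and a dot for the median. Replicate 3 is high in pxf (median 116.2%) and low in pxf er erl2 (78.0%) and wild type (81.6%).

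Gene copies of the same subunit did not all change in proportion. PSBO1 (AT5G66570) and PSBO2 encode the manganese-stabilising protein of the oxygen-evolving complex. PSBO1 was at 179, 216 and 184 CPM in wild type, 354, 386 and 328 CPM in er erl2, 452, 455 and 546 CPM in pxf and 584, 676 and 462 CPM in pxf er erl2, and PSBO2 was at 17.5, 21.3 and 17.7 CPM in wild type, 68.6, 69.1 and 56.8 CPM in er erl2, 85.9, 86.3 and 109.8 CPM in pxf and 160.0, 177 and 108 CPM in pxf er erl2. PSBO1 rose by 1.57 (SE 0.13, adjusted p = 5.46e-06) in pxf er erl2 on the log2 scale and PSBO2 by 2.98 (SE 0.19, adjusted p = 1.39e-06). The share of PSBO2 in the PSBO counts was 8.87% in wild type, 15.4% in er erl2, 16.2% in pxf and then 20.4% in pxf er erl2 (means, n = 3), and the wild-type libraries lay below all others. The share of LHCB1.2 in LHCB1 counts was 0.540% in wild type, 3.19% in er erl2, 1.56% in pxf and then 1.95% in pxf er erl2, while LHCB1.3 kept 92.7% or more in every genotype mean. The share of LHCB2.2 in LHCB2 counts was 35.5%, 38.6%, 46.9% and 45% in the same order. The share of PSAD2 in PSAD counts was 20.1% ± 6.07 in wild type and 23.7% to 25.8% in the mutants, within the wild-type spread. No test was made on shares.

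**Figure D5:**
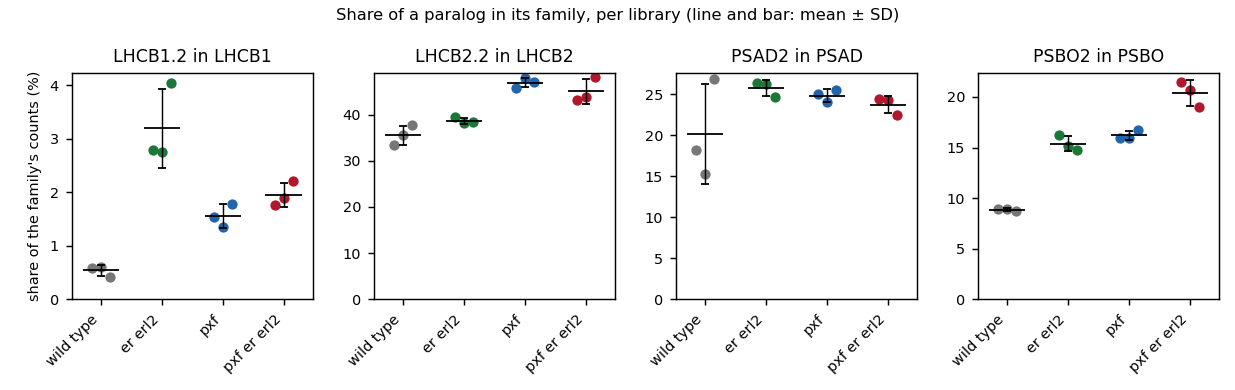
Share of a gene copy in the counts of its family (y axis, percent, from 0) in each library by genotype, with line and bar for mean ± SD (n = 3). The PSBO2 share rises from 8.87% in wild type to 20.4% in pxf er erl2, and the LHCB1.2 share is highest in er erl2.

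Other photosynthesis genes moved in the same direction. All 12 nuclear genes for electron transport and the chloroplast ATP synthase rose in each of the 3 lines, with median log2 differences of 0.79, 1.3 and 1.43 in er erl2, pxf and pxf er erl2. The largest in pxf er erl2 were LFNR2, a ferredoxin-NADP reductase (2.83), ATPC1, the gamma subunit of the ATP synthase (1.69), and PETC, the Rieske protein of the cytochrome complex (1.56). Of 18 Calvin cycle genes, 12 rose in er erl2, 17 in pxf and then 18 in pxf er erl2. Their median log2 differences were 1.39, 2.00 and 2.47 in the same order, above those of the antenna and photosystem genes. The largest in pxf er erl2 were the Rubisco small subunit genes RBCS1B and RBCS2B and the dehydrogenase gene GAPB (3.33). RBCS1B had 2 wild-type counts and 71 in pxf er erl2, which is 30.9 times as many per total count, with a 95% counting interval from 8.24 to 260. RBCS2B had 4 and 50 counts, or 10.9 times, with an interval from 3.99 to 41.5. These RBCS genes are near-identical neighbours, so their counts are uncertain.

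Of 11 tested genes for chlorophyll synthesis and its regulation, 6 rose and 1 fell in er erl2, 8 rose in pxf, and 8 rose and 1 fell in pxf er erl2. In pxf er erl2, PORB and CHLH, enzymes of chlorophyll synthesis, rose by 2.05 and 1.88, and CHL27, the cyclase subunit, by 1.29 (log2). GLK2, an activator of antenna genes, was the gene that fell: its log2 difference was -0.69 (SE 0.12, adjusted p = 0.00157) in er erl2, -0.07 (SE 0.12, adjusted p = 0.722) in pxf and -0.50 (SE 0.12, adjusted p = 0.00549) in pxf er erl2. GLK2 was at 66.9, 81.9 and 57.1 CPM in wild type, 39.5, 44.7 and 43 CPM in er erl2, 59.7, 66.9 and 69.9 CPM in pxf and 47.0, 53.7 and 44.4 CPM in pxf er erl2. GLK1 was not tested, with 2 counts for wild type, 9 for er erl2, 14 for pxf and 17 for pxf er erl2. Of 10 tested genes for antenna assembly, photoprotection and state-transition kinases, 6, 9 and 9 rose in the 3 lines. The largest changes in pxf er erl2 were AT5G02120, a one-helix protein gene (2.81), LIL3:1, a chlorophyll-synthesis scaffold (2.58), and ELIP2, an early light-induced protein, which fell (-1.42).

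Markers of other tissues were read in the same libraries. The leaf blade genes YAB2, YAB3 and YAB5 averaged below 0.2 CPM in every genotype, and FIL had 1, 2, 14 and 20 counts in wild type, er erl2, pxf and pxf er erl2. Over 6 leaf blade markers the sum was 34.1 to 38.6 CPM in wild type against 40.8 to 49.1 CPM in pxf er erl2, and 1 of 2 tested rose. The 6 guard cell markers summed to 2.80 to 5.40 CPM in wild type against 4.23 to 7.41 CPM in pxf er erl2, and the 3 tested had adjusted p of 0.137 (FAMA), 0.749 (KAT1) and 0.396 (MYB60) there. The 7 root hair markers summed to at most 1.46 CPM in any library. Of 6 xylem markers, 4 fell and 1 rose in pxf er erl2, and their sum was 1312 to 1444 CPM in wild type against 1016 to 1085 CPM in pxf er erl2. Of 5 phloem markers 4 rose, with sums of 317 to 333 CPM and 582 to 826 CPM. All 3 periderm markers, which mark the outer corky layer, rose, with sums of 92.6 to 103 CPM in wild type against 148 to 224 CPM in pxf er erl2. Of 3 cambium markers 1 rose and 0 fell, with sums of 196 to 207 CPM in wild type against 239 to 260 CPM in pxf er erl2. Their part in the photosynthesis gene changes was not tested. In er erl2, where 33 of the 42 genes rose, the guard cell sum was 6.34 to 8.75 CPM, or 1.71 times the wild-type mean without overlap, and 1 of 3 tested, FAMA, rose. The leaf blade sum was 43.1 to 51.6 CPM there, or 1.28 times, and 1 of 2 tested, AS1, rose (log2 difference 0.48). The other tested leaf blade marker was at -0.43 without a call. Rising in er erl2 were also 1 of 6 xylem, 2 of 5 phloem, 1 of 3 periderm and 2 of 3 cambium markers, and 0 of these fell. In pxf the guard cell sum was 5.99 to 7.53 CPM, the leaf blade sum 36.5 to 40.9 CPM and the periderm sum 185 to 271 CPM. Of 2 tested leaf blade markers 1 rose in pxf (log2 difference 0.76), and the other was at -0.17 without a call. Of 3 tested guard cell markers 0 were called in pxf. In pxf, 4 of 6 xylem markers fell, 4 of 5 phloem markers rose and 1 fell, and all 3 periderm markers rose. Of 3 cambium markers 1 rose and 0 fell in pxf. The cambium sum was 1.16, 1.27 and 1.23 times the wild-type mean in er erl2, pxf and pxf er erl2. The part of these markers in the changes of the photosynthesis genes in er erl2 and pxf was not tested either.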

How the data were processed

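RNA of 12 samples, 3 per genotype, was sequenced after poly-A selection, per the labels' protocols. The authors deposited raw read counts per locus in 1 file per library. The submitters' processing notes name HISAT2 2.0.5, featureCounts 1.5.0-p3 and the TAIR10 build. The strand setting and the treatment of multiply mapped reads are not given in the sources used here.

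Counts were filtered with filterByExpr, scaled by TMM (factors 0.985 to 1.01) and tested with the quasi-likelihood test of edgeR 4.0.16 (R 4.3.3) in a model of all 4 genotypes, with Benjamini-Hochberg adjustment over 19236 loci. The biological coefficient of variation was 11.6%. Additivity was tested on the log2 scale by the interaction in that model, and on the CPM scale by limma 3.58.1 on CPM with weights from the edgeR dispersion. Alternatives were DESeq2 1.42.0, library totals without TMM, no filter, library sizes without photosynthesis loci, a replicate block, fits of the compared genotypes alone, and each library left out. The models were tested on simulated data.

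Gene names, coordinates and sequences are from RefSeq, assembly TAIR10.1, in which all 43 genes were found by locus code. Its coordinates were used for printed sequences, coding lengths, shared windows, exon overlaps, promoters and distances between loci. Values in every library are given for the genes with the largest and smallest change and the highest level per kilobase in each class, the untested gene, the 5 smallest interaction p-values, and the copy pair with the largest shift in share. LHCB1.1, LHCA6 and GLK2 were added to these. The members and lists were chosen with earlier results of these data known. P-values measure the spread between samples called biological replicates. Intervals on counts are exact, at the 95% level, and cover counting error only.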

Additional observations from a re-analysis of the deposited data

Results flagged for a closer look

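For 14 genes the effect of the er erl2 alleles differed between plants with and without the pxf alleles: the log2 interaction, which is 0 when fold changes multiply, had an adjusted p under 0.05 (edgeR). All 14 values were negative, meaning a smaller fold change in the pxf background. For LHCB1.4 the log2 difference there was below 0, at -0.65, without a call. Among antenna genes the interaction was -2.79 for LHCB1.4, -2.70 for LHCB1.2, -2.53 for LHCA5, -1.01 for LHCB2.2 and -0.74 for LHCB6. Among photosystem I subunits it was -1.03 for PSAD1, -0.88 for PSAF, -0.88 for PSAO, -0.70 for PSAL, -0.69 for PSAH2 and -0.60 for PSAH1. Among photosystem II proteins it was -1.69 for PSBS, -1.12 for PSBO2 and -0.69 for PSBY. The er erl2 alleles raised each of these genes in the presence of the PXY family, and 1 of the 14, PSBO2, also passed in pxf er erl2 against pxf. None of the 14 departed from additivity on the CPM scale at an adjusted p of 0.05 (limma). LHCB1.4 and LHCA5 had few counts in wild type, and PSAH1 is partly covered by a locus on the opposite strand. Of the 14 calls, 7 passed under every alternative run. Of 17 alternatives, LHCB6 was lost under 12 (adjusted p up to 0.11, edgeR), PSAO under 11, and LHCB1.4 and PSAH1 under 8 each. LHCA5 was lost under 5, PSBO2 under 2 and PSBY under 1.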

How the results depend on the processing

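No fold change of a called gene changed sign over the 12 libraries left out in turn and the other alternatives. The summed level in pxf er erl2 moved from below the additive expectation (93.0%) to above it (104.1%) without pxf er erl2 replicate 3. The counts of genes called ranged over libraries left out from 25 to 36 in er erl2 (main 33, lowest without wild-type replicate 3), 40 to 41 in pxf (40), 40 to 42 in pxf er erl2 (41) and 28 to 38 in pxf er erl2 against er erl2 (37, lowest without pxf er erl2 replicate 2). In pxf er erl2 against pxf the count was 2, and it was 4 with DESeq2, 1 in a fit of the compared genotypes alone, and 1 to 9 over libraries left out. The log2 interaction gave 14, 21 with DESeq2, 11 without a filter and 9 to 18 over libraries left out. The CPM interaction gave 0, and 0 to 1 over libraries left out, the 1 being without pxf er erl2 replicate 2. The sums against both expectations moved less than the replicate spread. The cause of these changes was not tested.

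Replicate numbers did not pair the libraries: of 18 same-number pairs, 5 correlated above 0.1, and 2 of 12 libraries correlated best with their own number. With the replicate number as a block, 33, 40, 41, 1 and 36 genes were called in the 5 contrasts in the order er erl2, pxf and pxf er erl2 against wild type, then pxf er erl2 against pxf and against er erl2, with 11 and 0 in the log2 and CPM interactions. Of the calls, 25 of 33, 40 of 40, 40 of 41, 1 of 2 and 28 of 37 held in every alternative. Depth limited LHCA5, LHCA6, LHCB2.3 and LHCB1.4, the tested genes with the fewest wild-type counts.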

Other observations

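ELIP1, an early light-induced protein gene that was not tested, had 115, 0 and 19 counts in er erl2 replicates 1, 2 and 3, and 0 to 8 counts in each other library. It was singled out after its values were seen.

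The 8 listed chloroplast-encoded loci summed to 8.46 ± 2.16 CPM in wild type, 10.5 ± 3.62 CPM in er erl2, 15.5 ± 2.05 CPM in pxf and then 12 ± 2.07 CPM in pxf er erl2 (SD, n = 3). Of 7 tested, psbB and psbC rose in pxf (edgeR). The smallest adjusted p was 0.177 in er erl2 (psbB) and 0.0592 in pxf er erl2 (psbB). These libraries were selected for poly-A tails, which most chloroplast transcripts lack.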
